A study of Mus musculus with 16 samples.

Results

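Hepatic expression of 10 genes of the NRF2 antioxidant pathway was examined in mice fed a high-fat diet (HFD) with or without fenretinide, a synthetic retinoid. The genes were chosen by symbol and were 10 of the 23420 rows of the count table: the transcription factor Nfe2l2 (NRF2), its inhibitor Keap1, and the targets Gclc, Gclm, Slc7a11, Srxn1, Txnrd1, Nqo1, Hmox1 and Osgin1. Liver RNA came from 16 male C57BL/6J wild-type mice, 4 in each of 4 groups. FEN-HFD mice received a diet with 45% fat and 0.04% fenretinide, and HFD mice received the 45% fat diet alone, for either 20 weeks or 7 days. Every group ate the high-fat diet and no lean livers are among these 16 libraries, so no value below is an effect of the HFD itself. The 20-week and 7-day mice were different animals, and duration, age and cohort cannot be told apart between them.

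NRF2 is a transcription factor that induces defences against oxidants and electrophiles. In unstressed cells KEAP1 binds it and presents it to an ubiquitin ligase for degradation. When cysteines of KEAP1 are modified, NRF2 accumulates, pairs with a small MAF protein and binds antioxidant response elements (AREs) near its targets. The pathway is thus controlled mainly at the level of the NRF2 protein, which was not measured here. In the liver it is known for glutathione synthesis, for the thioredoxin system and for the clearance of drugs and bile acids.

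To show the letters to which such factors bind, the promoters of the genes were searched on both strands for TGACNNNGC, the core of the ARE, and for TGANTCAGC, a MAF-type element. An ARE core whose 3 free letters read TCA would count for both. Windows ran from 250 bases before to 50 bases after a transcription start (RefSeq sequence, GRCm38.p6) and were at hand for 8 of the 10 genes, all but Gclc and Hmox1, with 10 windows in all because Txnrd1 has 3 starts. Of these, 5 windows, each of a different gene, held a match. Among 32851 windows of 27025 genes, 12.4% held the ARE core and 1.19% the MAF-type element. The Srxn1 and Osgin1 windows are printed because both hold the MAF-type element, read as the same 9 letters (TGAGTCAGC), while the fold changes of the genes at 20 weeks were of opposite sign, though neither passed the test. The Srxn1 window lies at chr2:152105274-152105573 and the Osgin1 window at chr8:119436897-119437196, both on the plus strand. The Srxn1 window spans the gene start given by GENCODE, at 152105516. The Osgin1 window lies wholly inside the gene as GENCODE gives it (chr8:119434124-119446256), downstream of that start. Capitals mark the matches.
Srxn1: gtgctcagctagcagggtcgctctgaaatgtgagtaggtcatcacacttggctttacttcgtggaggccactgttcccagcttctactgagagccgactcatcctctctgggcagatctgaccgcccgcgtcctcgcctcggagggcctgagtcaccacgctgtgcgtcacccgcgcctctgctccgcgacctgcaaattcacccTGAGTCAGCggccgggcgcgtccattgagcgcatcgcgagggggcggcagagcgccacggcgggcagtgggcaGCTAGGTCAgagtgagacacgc
Osgin1: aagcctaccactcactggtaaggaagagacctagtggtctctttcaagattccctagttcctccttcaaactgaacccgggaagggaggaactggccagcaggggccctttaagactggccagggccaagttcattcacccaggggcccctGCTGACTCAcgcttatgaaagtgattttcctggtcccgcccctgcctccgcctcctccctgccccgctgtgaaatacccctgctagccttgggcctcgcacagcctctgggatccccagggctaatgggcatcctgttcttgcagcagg
In Srxn1 the MAF-type element began at position -45 from the start and read in the sense of the gene, and an ARE core on the minus strand (TGACCTAGC) began at position 29. In Osgin1 the element lay on the minus strand, from position -99. Nfe2l2 itself held an ARE core at position -240 (TGACTCCGC), Gclm held one on the minus strand at position -134 (TGACGGTGC), and the second start of Txnrd1 held one on the minus strand at position -92 (TGACAAAGC). No match was found in the windows of Keap1, Nqo1 and Slc7a11, which says only that these letters are not in that stretch. A match of letters is a description and binding was not measured.

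**Figure D1:**
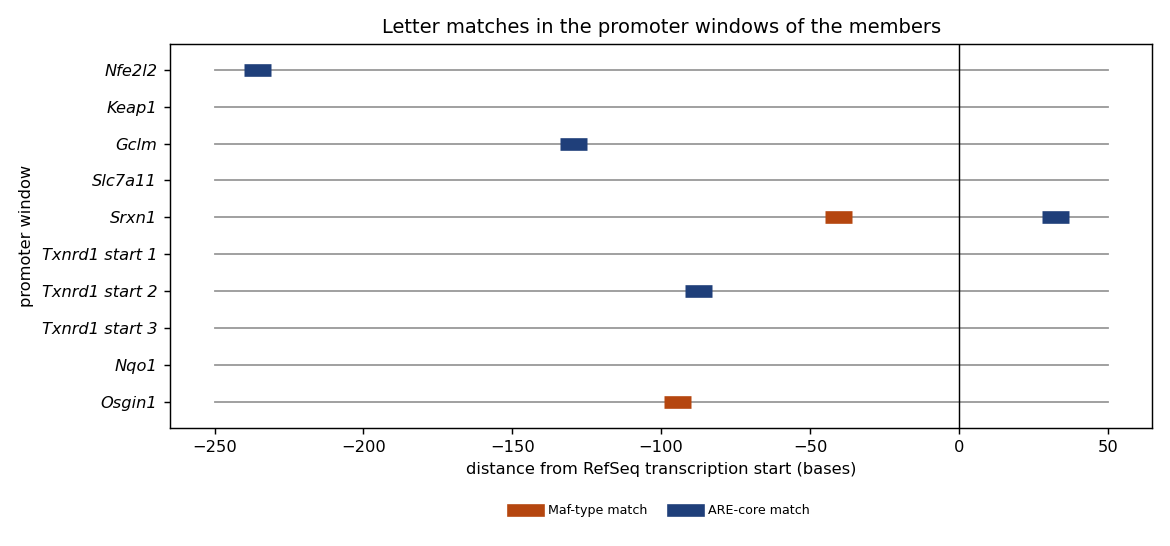
Letter matches in the 10 promoter windows of 8 genes, by distance in bases from the RefSeq transcription start (horizontal axis, 250 bases before to 50 bases after). Bars mark the 9 letters of each match; 5 windows held one or more, and Srxn1 held both kinds.

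Libraries held between 19218230 and 32546829 counts assigned to genes. The library of FEN-HFD 20-week mouse 29 stood apart, since Rn45s, the ribosomal RNA precursor, took 53.1% of its counts and Lars2 took 4.36%, whereas Rn45s took 0.466% to 1.46% in the other 15 libraries. Levels are given as CPM, the counts of a gene relative to the library total after scaling by TMM factors over the 16 libraries. Hepatocyte markers were present in every library, with a summed level of 50560 to 63340 CPM in FEN-HFD and 66475 to 76885 CPM in HFD livers at 20 weeks, and of 57679 to 66090 CPM in FEN-HFD and 63005 to 78852 CPM in HFD livers at 7 days. Most of the sum was Alb, and the 6 markers did not differ in 1 direction: at 20 weeks the log2 fold changes of FEN-HFD against HFD were -0.56 for Alb and -0.47 for Ttr, but 0.39 for Apoa1, 0.10 for Cps1, 0.29 for Cyp2e1 and 0.56 for Tat, none of them called. Of the marker lists, edgeR called 1 of 8 Kupffer cell markers (Marco) and 1 of 5 stellate cell markers (Lrat) in FEN-HFD against HFD at 20 weeks, and Lrat alone at 7 days, all higher. The other stellate cell markers went the other way at 20 weeks, at -0.31 for Reln, -2.12 for Des, -0.19 for Dcn and -1.36 for Col1a1. At 7 days they were mixed, at -0.16 for Reln, -0.17 for Des, and 0.09 for both Dcn and Col1a1. Between durations edgeR called Marco higher and the hepatocyte gene Cps1 lower on FEN-HFD, and on HFD the hepatocyte genes Cps1 and Apoa1 and the Kupffer cell genes Vsig4 and Clec4f lower and the stellate cell gene Col1a1 higher. On FEN-HFD the other Kupffer cell markers lay between -0.13 and 0.15, against 2.58 for Marco. On HFD all 8 Kupffer cell markers were negative and all 5 stellate cell markers positive. The hepatocyte markers Alb (0.12) and Ttr (0.16) were positive there and the other hepatocyte markers negative. No marker of any list was called in the interaction, and none of the cholangiocyte, endothelial, erythroid or lymphocyte markers in any comparison.

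All but one of the 10 genes were well expressed in every group. Per kilobase of exon (CPM per kb, GENCODE M21 exons), Gclc, the catalytic subunit of glutamate-cysteine ligase, had the highest level in each of the 4 groups, at 58.2 ± 5.88 in FEN-HFD and 103 ± 23.9 in HFD livers at 20 weeks, and at 51.8 ± 12.1 in FEN-HFD and 64.9 ± 15.5 in HFD livers at 7 days (SD, n = 4 each). In 20-week HFD livers it was followed on this scale by Srxn1 at 29.2 ± 13.7, Gclm at 21.4 ± 1.41, Txnrd1 at 21.2 ± 2.49, Nfe2l2 at 18.4 ± 3.31, Osgin1 at 17.4 ± 2.48, Hmox1 at 13.5 ± 3.66 and Keap1 at 12.1 ± 0.491 CPM per kb. In that order the ranges of mean ± SD overlapped between each pair of neighbours from Srxn1 to Keap1, though genes further apart, such as Gclm and Keap1, did not overlap. Nqo1, at 8.64 ± 2.74 CPM per kb, was ninth in each of the 4 groups, and Slc7a11 was last. Srxn1 ranked second in 20-week HFD livers and seventh in the other 3 groups, while Osgin1 ranked sixth in 20-week HFD livers and second in the other 3.

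**Figure D2:**
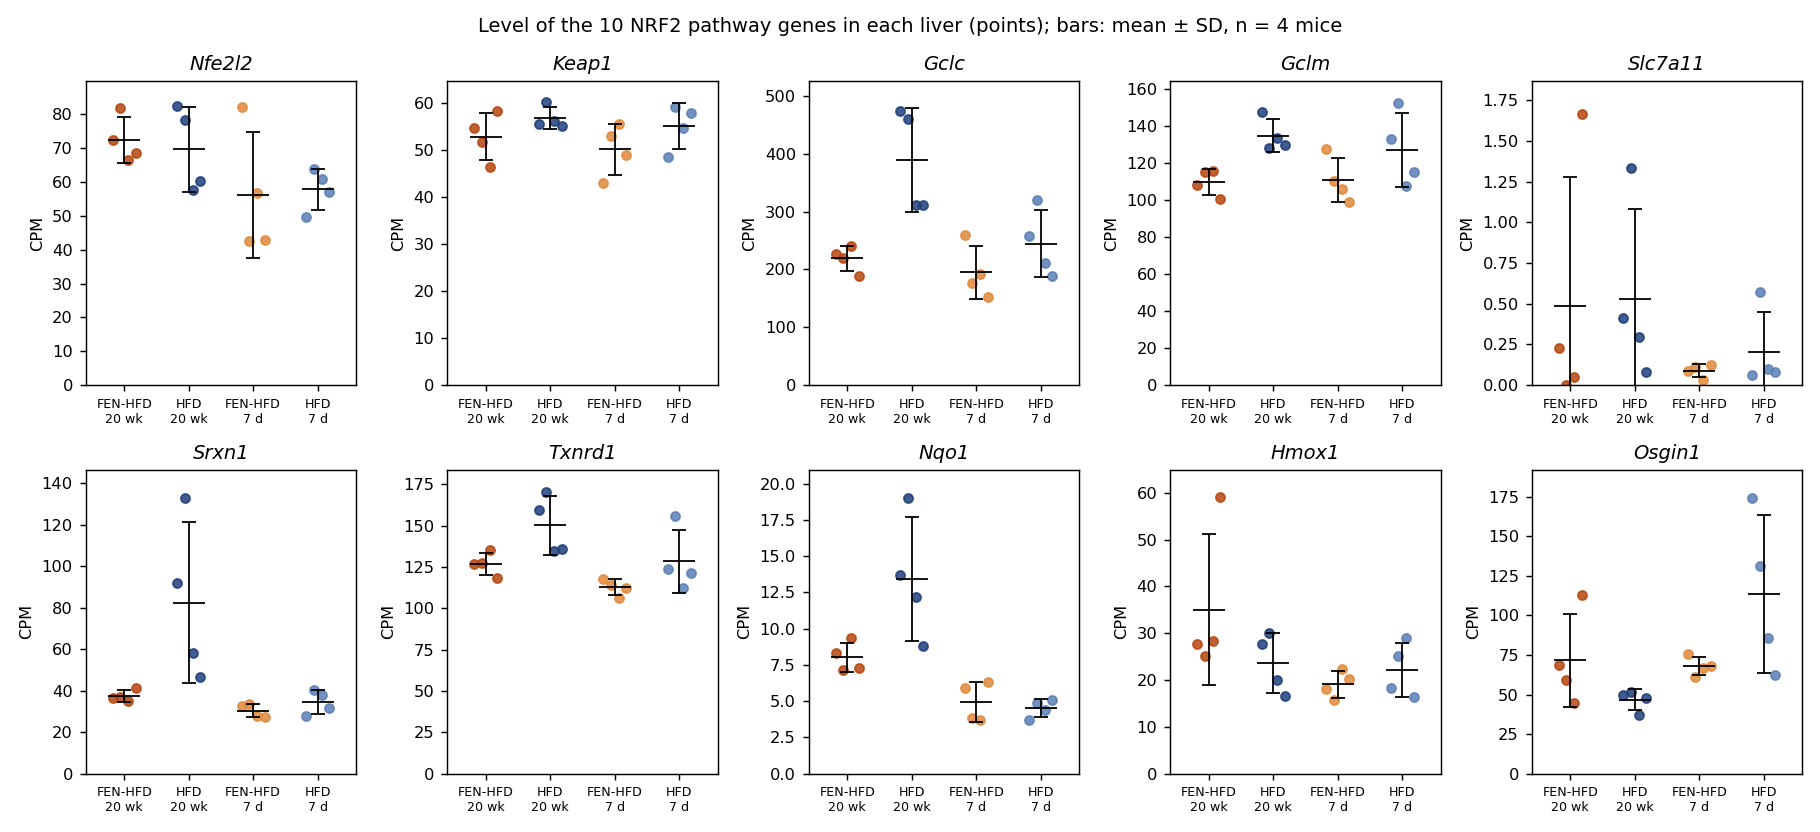
Level of each of the 10 genes in every liver, in CPM (vertical axis, from 0), by diet and duration; points are mice, and bars are the mean ± SD of 4 mice (SD bars that reach below 0 are cut at 0). The 20-week HFD mice lie above the 20-week FEN-HFD mice without overlap for Gclc, Gclm and Srxn1, and the highest Hmox1 value, 59.1 CPM, is that of FEN-HFD mouse 29.

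The first comparison asked what fenretinide did to the pathway over 20 weeks of HFD. Gclc was lower in FEN-HFD than in HFD livers, and it was the only member that passed the test. Gclm, Srxn1 and Nqo1 had negative fold changes that did not pass, and Hmox1 and Osgin1 had positive ones that did not pass either. Neither Nfe2l2 nor Keap1 passed, both with fold changes near 0. The test was the quasi-likelihood F-test of edgeR, adjusted for 13010 genes (Benjamini-Hochberg), and a gene is said to be called where the adjusted p is under 0.05. It called 1 of the 9 tested members, against 1.86% of all genes tested, of which 0.769% were called higher and 1.09% lower. At an unadjusted p under 0.05 there were 1 higher and 5 lower members, against 18.5% of all genes. The median log2 fold change of the 9 members was -0.24, beside 0.01 over all genes.

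Nfe2l2 (chr2:75675513-75704641, minus strand, mm10) had 72.6, 81.8, 66.7 and 68.7 CPM in FEN-HFD mice 21, 22, 24 and 29, against 82.5, 78.5, 57.6 and 60.4 CPM in HFD mice 25, 28, 33 and 45. The groups overlapped, and the log2 fold change was 0.05 with an SE of 0.13 (edgeR adjusted p = 0.860). Keap1 (chr9:21229730-21239361, minus strand) had 54.7, 51.7, 46.4 and 58.3 CPM in FEN-HFD mice and 55.6, 60.1, 56.1 and 55.1 CPM in HFD mice, in the same order. Again the groups overlapped, and the log2 fold change was -0.11 with an SE of 0.09 (edgeR adjusted p = 0.548). Keap1 shares 510 exon bases with the antisense gene Gm16754, and the strand setting of the counting is not given in the sources used here.

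The 2 subunits of glutamate-cysteine ligase, which carry out the first step of glutathione synthesis, came next. Gclc (chr9:77754535-77794485, plus strand) had 227, 220, 241 and 188 CPM in FEN-HFD mice, against 475, 460, 312 and 312 CPM in HFD mice. Every FEN-HFD mouse was below every HFD mouse, and 2 HFD mice, 25 and 28, stood well above the other 2. Gclc fell by 0.83 on the log2 scale with an SE of 0.17 (edgeR adjusted p = 0.0381), to 0.562 times the HFD level. The call was lost when any one of FEN-HFD mice 21, 22 or 24 or HFD mice 25 or 28 was left out (edgeR adjusted p = 0.124, 0.0951, 0.0738, 0.120 and 0.0940 in that order), and it held at 0.0430 without mouse 29. Over all genes, the fits that lost it called 16 to 59 higher and 20 to 79 lower, against 100 and 142 with all mice. The log2 fold change of Gclc stayed between -0.92 and -0.72 in every fit without 1 mouse. Gclm (chr3:122245557-122270732, plus strand), the modifier subunit, had 108, 115, 115 and 101 CPM in FEN-HFD mice and 148, 128, 133 and 130 CPM in HFD mice. These groups did not overlap either, and the log2 fold change of -0.30 with an SE of 0.09 missed the threshold (edgeR adjusted p = 0.114). Gclm shares exon bases with Gm17494 on the opposite strand and with the pseudogene Gm6061, so some of its reads are uncertain.

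Slc7a11 (chr3:49892526-50443614, minus strand), the cystine importer that feeds glutathione synthesis, was near the limit of detection. It had 6, 0, 1 and 16 counts in FEN-HFD mice 21, 22, 24 and 29, or 0.225, 0, 0.0502 and 1.66 CPM, against 11, 43, 9 and 2 counts in HFD mice 25, 28, 33 and 45, or 0.415, 1.33, 0.294 and 0.0805 CPM. The 0 in mouse 22 allows a level of up to 0.117 CPM, taking 3 counts as the limit and covering counting error only. Most counts came from 1 mouse in each group, and the gene did not pass the filter on low counts in any of the 4 pairwise comparisons.

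Among the thioredoxin-dependent enzymes, Srxn1 (chr2:152105516-152111376, plus strand), which repairs over-oxidised peroxiredoxins, had the most negative fold change of the 9. It had 36.5, 37.0, 34.9 and 41.4 CPM in FEN-HFD mice, against 91.8, 133, 58.3 and 46.7 CPM in HFD mice. FEN-HFD mice were tightly grouped and below every HFD mouse, whereas HFD mice spread 2.85-fold from the lowest to the highest. The log2 fold change was -1.14 with an SE of 0.29 (edgeR adjusted p = 0.0856). Txnrd1 (chr10:82833951-82897712, plus strand), the cytosolic thioredoxin reductase, had 127, 127, 135 and 118 CPM in FEN-HFD mice and 160, 170, 135 and 136 CPM in HFD mice. The highest FEN-HFD mouse reached the lowest HFD mice, and the log2 fold change was -0.24 with an SE of 0.10 (edgeR adjusted p = 0.242). Gclc, Gclm and Srxn1 were thus the 3 of 10 members whose groups did not overlap, against 12.8% of all genes tested.

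Nqo1 (chr8:107388225-107403206, minus strand), the quinone reductase used as a marker of NRF2 activity, had 8.31, 7.16, 9.34 and 7.28 CPM in FEN-HFD mice, against 13.7, 19, 12.2 and 8.78 CPM in HFD mice. Only HFD mouse 45 fell within the FEN-HFD range, and the log2 fold change was -0.74 with an SE of 0.21 (edgeR adjusted p = 0.108). Hmox1 (chr8:75093621-75100589, plus strand), the inducible enzyme of haem breakdown, had 27.7, 25.0, 28.3 and 59.1 CPM in FEN-HFD mice and 27.8, 30.2, 20.1 and 16.5 CPM in HFD mice. The value of mouse 29 was far above the rest. The log2 fold change was 0.55 with an SE of 0.30 (edgeR adjusted p = 0.375), and 0.19 without mouse 29. Osgin1 (chr8:119434124-119446256, plus strand), an oxidative stress-induced inhibitor of growth, had 68.9, 59.3, 44.9 and 113 CPM in FEN-HFD mice and 49.9, 51.6, 36.9 and 48.0 CPM in HFD mice. Mouse 29 was again the highest, FEN-HFD mouse 24 was within the HFD range, and the log2 fold change was 0.61 with an SE of 0.26 (edgeR adjusted p = 0.252), or 0.31 without mouse 29.

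The count of called members depended on the test, as did the share of all genes called lower, which was 4.51% by DESeq2 and 4.95% by limma-voom. DESeq2 called 4 lower, namely Gclc, Srxn1 (adjusted p = 0.00255), Gclm (0.0155) and Nqo1 (0.0311), and limma-voom with sample weights called 3 lower, namely Gclc, Srxn1 (adjusted p = 0.0267) and Gclm (0.0383). With all 16 libraries in 1 edgeR fit, Gclc and Srxn1 were called, Srxn1 at an adjusted p of 0.0143. That fit called 254 of 13387 genes higher and 407 lower. Without HFD mouse 45, edgeR called Gclc, Nqo1 and Srxn1, at an adjusted p of 0.0414 for Nqo1 and 0.0327 for Srxn1. In this fit 87 of 13125 genes were called higher and 180 lower.

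Marker levels of other cells also differed between the groups and between mice. The summed level of 8 Kupffer cell markers was 635, 548, 565 and 1309 CPM in FEN-HFD mice 21, 22, 24 and 29, against 439, 456, 510 and 437 CPM in HFD mice, so that it was highest in the mouse with the most Hmox1, Osgin1 and, among FEN-HFD mice, Slc7a11. All 8 markers had positive fold changes (median log2 0.64) and Marco, a scavenger receptor, was called higher at a log2 fold change of 2.26 (edgeR adjusted p = 0.0357), while no marker of the list was at 0 in any group. In mouse 29, whose library was the one with 53.1% Rn45s, all the other marker lists also had their highest sum among FEN-HFD mice. It had 63340 CPM for hepatocyte and 5.30 CPM for lymphocyte markers. In the FEN-HFD group, where the Kupffer cell sum was higher, the means of Gclc, Gclm, Srxn1 and Nqo1 were lower and those of Hmox1 and Osgin1 higher. The part of any of these cells in the values of the members was not tested. In whole liver a change in the share of a cell type and a change in RNA per cell cannot be told apart.

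**Figure D3:**
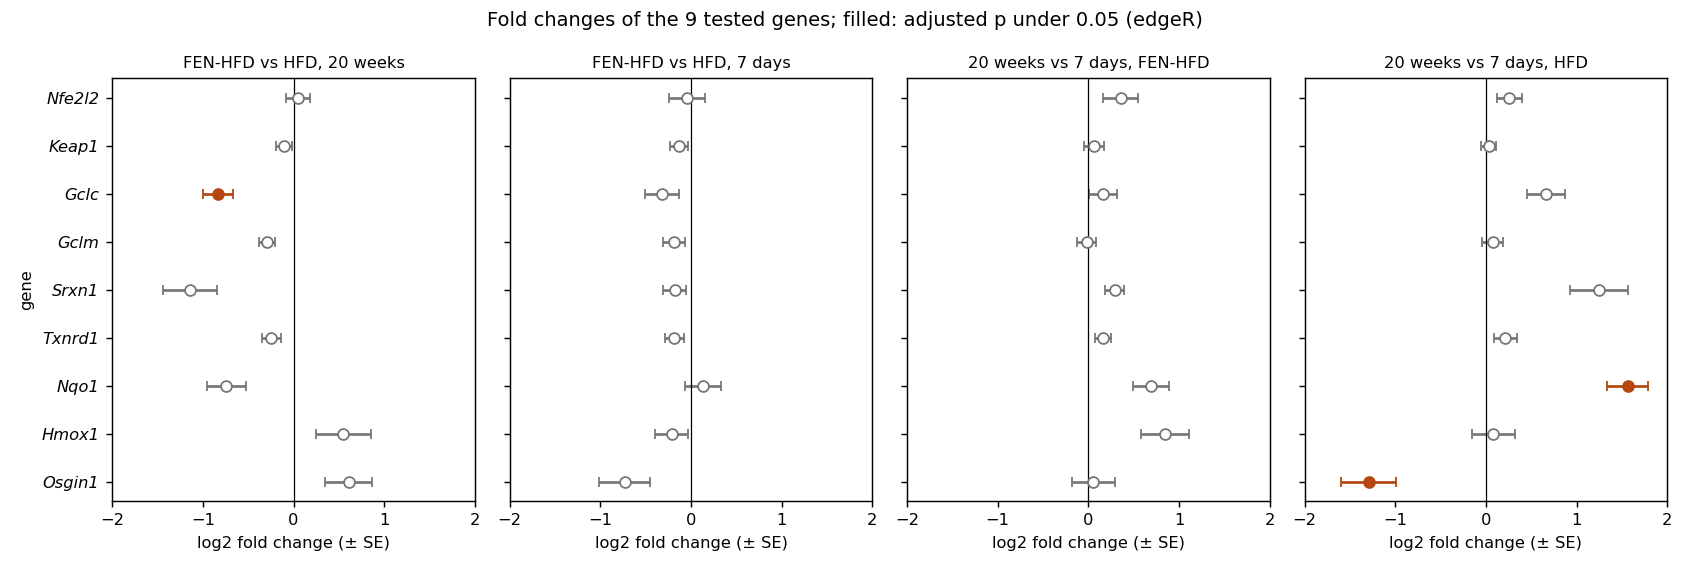
Log2 fold change (horizontal axis, ± SE) of the 9 tested genes in the 4 pairwise comparisons; filled points passed edgeR's test at an adjusted p under 0.05. Filled points are Gclc in FEN-HFD against HFD at 20 weeks, and Nqo1 and Osgin1 in HFD at 20 weeks against 7 days.

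After 7 days of fenretinide none of the 9 tested members was called by edgeR, against 0.0988% of 13157 genes tested, by DESeq2 or by limma-voom. At an unadjusted p under 0.05 there was 1 member, Osgin1, against 5.08% of all genes, and no member had groups without overlap, against 3.19%. Osgin1 had 75.8, 61.3, 66.7 and 68.3 CPM in FEN-HFD mice 61, 62, 65 and 66, against 174, 131, 85.6 and 62.1 CPM in HFD mice 142, 143, 144 and 146. FEN-HFD mice were close together, HFD mice spread 2.81-fold, and HFD mouse 146 lay within the FEN-HFD range. The log2 fold change was -0.73 with an SE of 0.28 (edgeR adjusted p = 0.877).

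At 7 days the enzymes of glutathione synthesis and the thioredoxin system had negative fold changes, none of them called. Of the 9 tested members 8 had negative fold changes. Gclc had 259, 176, 192 and 153 CPM in FEN-HFD mice and 257, 321, 210 and 189 CPM in HFD mice, with a log2 fold change of -0.32 and an SE of 0.19. Srxn1 had 32.6, 33.5, 27.9 and 27.5 CPM in FEN-HFD mice and 28.0, 40.1, 38.2 and 31.7 CPM in HFD mice, with a log2 fold change of -0.18 and an SE of 0.13. Both pairs of groups overlapped. Nqo1 had 5.89, 3.85, 3.69 and 6.31 CPM in FEN-HFD mice and 3.70, 4.90, 4.42 and 5.06 CPM in HFD mice, with a log2 fold change of 0.13 and an SE of 0.20, and its groups overlapped fully. The log2 fold changes of Nfe2l2, Keap1, Gclm, Hmox1 and Txnrd1 were -0.04, -0.13, -0.19, -0.21 and -0.18. The median over the 9 members was -0.18, beside -0.01 over all genes. Slc7a11 had 1 to 3 counts in each FEN-HFD mouse and 2, 18, 3 and 2 counts in HFD mice, with the 18 in mouse 143. That mouse also had the highest Kupffer cell sum among 7-day HFD livers, 1226 CPM, against 544 to 652 CPM in the other 3.

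Whether fenretinide acted differently at the 2 durations was tested as an interaction over all 16 libraries. None of the 10 members passed by edgeR, against 0.0299% of 13387 genes (0.00747% called higher and 0.0224% lower), by DESeq2 or by limma-voom. At an unadjusted p under 0.05 there were 3 members, against 8.68% of all genes. Osgin1 had a difference of 1.35 on the log2 scale with an SE of 0.41 (edgeR adjusted p = 0.348), its fold change being positive at 20 weeks and negative at 7 days. Srxn1 differed by -0.96 with an SE of 0.34 (edgeR adjusted p = 0.425) and Nqo1 by -0.87 with an SE of 0.31 (edgeR adjusted p = 0.419). For Gclc, the member called at 20 weeks, the difference was -0.51 with an SE of 0.27 (edgeR adjusted p = 0.621), so that its fold change was not shown to differ between durations. Slc7a11 was tested in this fit only, at 0.58 with an SE of 1.60.

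The mice on HFD alone were then compared between durations. Nqo1 was higher and Osgin1 was lower at 20 weeks than at 7 days. Srxn1 and Gclc had positive fold changes that missed the threshold, and Nfe2l2, Keap1, Gclm, Hmox1 and Txnrd1 had small ones. These were 2 of 9 tested members, against 7.51% of 13255 genes, and with 4.78% of genes called higher and 2.73% called lower. At an unadjusted p under 0.05 there were 3 higher and 1 lower members, against 25.5% of all genes. The median log2 fold change of the members was 0.21, beside -0.01 over all genes. The 20-week HFD mice are the same 4 in this comparison and in that with FEN-HFD, so the values of a gene in both are not independent.

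Nqo1 had 13.7, 19, 12.2 and 8.78 CPM in HFD mice at 20 weeks, against 3.70, 4.90, 4.42 and 5.06 CPM at 7 days. Every 20-week mouse was above every 7-day mouse, and the log2 fold change was 1.56 with an SE of 0.23 (edgeR adjusted p = 0.00547). It passed in every fit that left out 1 mouse, at adjusted p-values of up to 0.0216. Osgin1 had 49.9, 51.6, 36.9 and 48.0 CPM at 20 weeks, against 174, 131, 85.6 and 62.1 CPM at 7 days. All 20-week mice were below all 7-day mice, which were widely spread, and the log2 fold change was -1.29 with an SE of 0.30 (edgeR adjusted p = 0.0387). This call was lost in 7 of the 8 fits that left out 1 mouse, at adjusted p-values of up to 0.0948, and held only without 7-day mouse 146. It was also lost when every gene with at least 1 count was tested (adjusted p = 0.0644). Over all genes, the fits without 1 mouse called 128 to 380 lower, against 362 with all mice.

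Srxn1 had 91.8, 133, 58.3 and 46.7 CPM in HFD mice at 20 weeks, against 28.0, 40.1, 38.2 and 31.7 CPM at 7 days. These groups did not overlap, with the highest value again in mouse 28, and the log2 fold change was 1.25 with an SE of 0.32 (edgeR adjusted p = 0.0554). Nqo1, Osgin1 and Srxn1 were the 3 members whose groups did not overlap, against 16.9% of all genes tested. Gclc had 475, 460, 312 and 312 CPM at 20 weeks and 257, 321, 210 and 189 CPM at 7 days, and its groups overlapped only through 7-day mouse 143. Its log2 fold change was 0.66 with an SE of 0.21 (edgeR adjusted p = 0.0888). DESeq2, limma-voom and the fit of all 16 libraries each called 4 members, Nqo1, Gclc and Srxn1 higher and Osgin1 lower. The shares of all genes called higher and lower were 8.03% and 5.27% by DESeq2 and 5.76% and 3.81% by limma-voom. The fit of all 16 libraries called 912 of 13387 genes higher and 475 lower. Leaving out mouse 45 brought Srxn1 past the threshold (edgeR adjusted p = 0.0183), and leaving out mouse 143 did so for Gclc (0.0403). Over all genes, 598 were called higher and 240 lower without mouse 45, and 558 and 380 without mouse 143. The log2 fold changes of Nfe2l2, Keap1, Gclm, Hmox1 and Txnrd1 were 0.26, 0.03, 0.07, 0.08 and 0.21. Slc7a11, not tested here, had 11, 43, 9 and 2 counts at 20 weeks and 2, 18, 3 and 2 counts at 7 days. The Kupffer cell sum was 437 to 510 CPM at 20 weeks and 544 to 1226 CPM at 7 days in these mice, and all 8 markers had negative fold changes.

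In FEN-HFD mice no member was called by edgeR between 20 weeks and 7 days, against 1.18% of 12949 genes (0.849% called higher and 0.332% lower). At an unadjusted p under 0.05 there were 3 members, against 9.66% of all genes, and 4 had groups without overlap, against 6.55%. Nqo1 had 8.31, 7.16, 9.34 and 7.28 CPM at 20 weeks, against 5.89, 3.85, 3.69 and 6.31 CPM at 7 days, with a log2 fold change of 0.69 and an SE of 0.20 (edgeR adjusted p = 0.182). Hmox1 had 27.7, 25.0, 28.3 and 59.1 CPM at 20 weeks, against 18.1, 15.6, 22.4 and 20.3 CPM at 7 days, with a log2 fold change of 0.85 and an SE of 0.26 (edgeR adjusted p = 0.244). Srxn1 had 36.5, 37.0, 34.9 and 41.4 CPM at 20 weeks, against 32.6, 33.5, 27.9 and 27.5 CPM at 7 days, with a log2 fold change of 0.29 and an SE of 0.10 (edgeR adjusted p = 0.312). In each of these 3 genes, and in Txnrd1 (log2 fold change 0.16), every 20-week mouse was above every 7-day mouse. Gclc had 227, 220, 241 and 188 CPM at 20 weeks, against 259, 176, 192 and 153 CPM at 7 days, and its groups overlapped at a log2 fold change of 0.16. The log2 fold changes of Nfe2l2, Keap1 and Gclm were 0.36, 0.06 and -0.02, and that of Osgin1 was 0.06, or -0.25 without mouse 29. Slc7a11, again not tested, had 6, 0, 1 and 16 counts at 20 weeks and 3, 3, 1 and 3 counts at 7 days. Hmox1 was called higher by DESeq2 (adjusted p = 0.0360), as were Nfe2l2, Nqo1 and Srxn1 by limma-voom (adjusted p = 0.0181, 0.0184 and 0.0404). Among all genes tested, 1.98% rose and 1.14% fell by DESeq2, with 3.9% and 2.99% by limma-voom. Without mouse 29 edgeR called Hmox1 higher, at a log2 fold change of 0.49 (adjusted p = 0.0493). Calls also became more frequent across all genes in that fit. It had 269 of 13104 genes higher and 217 lower, against 110 of 12949 and 43 with all mice.

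The wider pathway was described with 8 lists of 107 related genes, none of them a member, which were chosen with results of these data known. In FEN-HFD against HFD at 20 weeks, 0 of the 104 tested were called higher by edgeR and 8 lower, with 4 and 24 by DESeq2 and 3 and 21 by limma-voom. Over all genes tested the shares called higher and lower were 0.769% and 1.09% by edgeR, 3.26% and 4.51% by DESeq2, and 3.72% and 4.95% by limma-voom. The calls of edgeR fell in 3 lists. Of 27 NRF2-inducible detoxification enzymes and exporters, 4 fell and 24 had negative fold changes (median log2 -0.42, beside 0.01 over all genes). The count of called genes in this list ran from 0 to 8 when 1 mouse was left out and from 4 to 13 under the other alternatives. Aox1, an aldehyde oxidase, averaged 121 ± 18.3 CPM in FEN-HFD and 219 ± 28.7 CPM in HFD livers (SD, n = 4 each), a log2 fold change of -0.86 (edgeR adjusted p = 0.0177). Abcc3, an exporter of conjugated bile acids and drugs, averaged 187 ± 16.5 CPM in FEN-HFD and 346 ± 67.6 CPM in HFD livers, a log2 fold change of -0.89 (edgeR adjusted p = 0.0201). Htatip2 and the glutathione S-transferase Gstm2 fell by 0.82 and 1.19 on the log2 scale (edgeR adjusted p = 0.0219 and 0.0313), though reads of Gstm2 may be shared with its close paralogues.

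The second list, the NADPH list, held enzymes that make NADPH, the reducing power for glutathione and thioredoxin. It also held Tkt and Taldo1, enzymes of the pentose phosphate pathway that do not make NADPH themselves. Of its 8 genes, 3 fell (median log2 -0.56). Me1, the cytosolic malic enzyme and also an enzyme of fat synthesis, averaged 62.5 ± 27.4 CPM in FEN-HFD and 238 ± 73.0 CPM in HFD livers, a log2 fold change of -1.93 (edgeR adjusted p = 0.0384). Nnt, the mitochondrial transhydrogenase, averaged 48.1 ± 3.87 CPM in FEN-HFD and 81.9 ± 3.96 CPM in HFD livers, a log2 fold change of -0.77 (edgeR adjusted p = 0.00464). C57BL/6J mice are known to carry a deletion within this gene, and whether its transcript gave a working enzyme was not measured. Idh2, a mitochondrial isocitrate dehydrogenase, fell by 0.79 (edgeR adjusted p = 0.0367). In the third list, haem and iron handling, Ftl1, the ferritin light chain, fell by 0.77 (edgeR adjusted p = 0.0191), 1 of 8 genes (median log2 -0.06). Of these 8 calls, that of Nnt held in every fit that left out 1 mouse (highest adjusted p = 0.0307). The other 7 were each lost in 3 to 6 of 8 such fits, all 7 without HFD mouse 25 and all 7 without FEN-HFD mouse 21, with highest adjusted p-values from 0.0807 to 0.127. Over all genes, 23 of 13091 were called higher and 33 lower without mouse 25. Without mouse 21 it was 16 of 13136 higher and 20 lower, against 100 of 13010 higher and 142 lower with all mice. The call of Gstm2 was among those lost without mouse 29, which has the high Rn45s share (log2 fold change -1.10, adjusted p = 0.0594), and that of Me1 was also lost when every gene with at least 1 count was tested (adjusted p = 0.0772).

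No gene was called at 20 weeks in the other 5 lists. The medians were -0.08 on the log2 scale for 14 partners and regulators of NRF2, -0.15 for 14 genes of the glutathione cycle, -0.10 for 16 of the thioredoxin and peroxiredoxin system, 0.11 for 7 of superoxide, peroxide and metal defence, and -0.30 for 10 ATF4 and p53 stress genes. At an unadjusted p under 0.05 these lists held 0 higher and 2 lower genes for the partners, 0 and 4 for glutathione, 1 and 3 for thioredoxin, 2 and 0 for superoxide and metal defence, and 1 and 3 for stress genes. DESeq2 called 0 and 1, 0 and 2, 0 and 2, 2 and 0, and 1 and 0 in the same lists, and limma-voom 0 and 1, 0 and 2, 1 and 2, 1 and 0, and 0 and 0. The metal-binding genes Mt1 and Mt2, named after their values were seen, had log2 fold changes of 2.46 and 3.17 (edgeR adjusted p = 0.128 and 0.104). At 7 days they were also higher in FEN-HFD than in HFD livers and not called by edgeR. Mt1 averaged 28.7 ± 14.8 against 8.70 ± 5.04 CPM there, and Mt2 7.44 ± 5.80 against 0.993 ± 0.613 CPM.

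**Figure D4:**
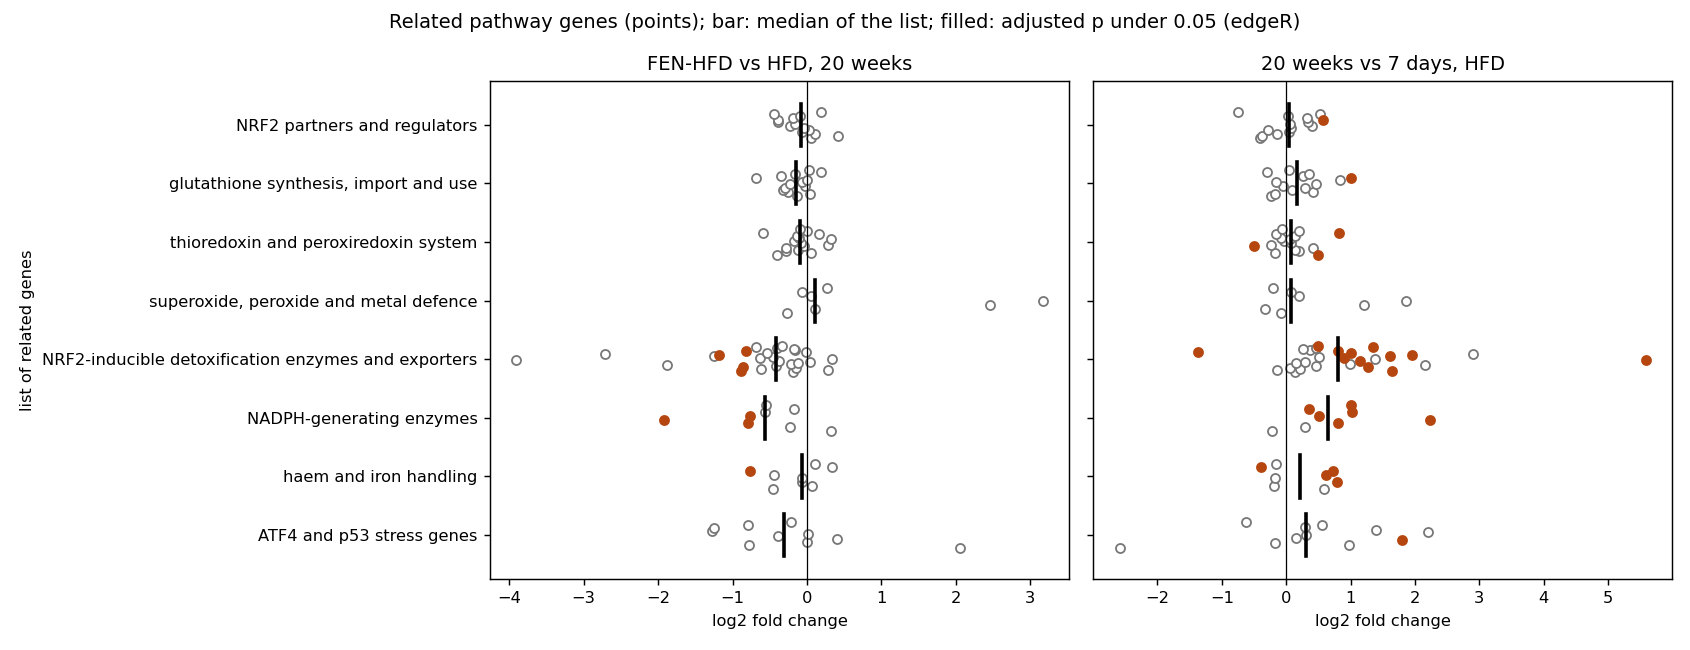
Log2 fold changes (horizontal axis) of the tested genes of 8 lists of related genes in FEN-HFD against HFD at 20 weeks (left) and in HFD at 20 weeks against 7 days (right); points are genes, filled where edgeR's adjusted p was under 0.05, and black bars are list medians. For detoxification genes the median is -0.42 on the left and 0.80 on the right, and for the NADPH list it is -0.56 and 0.65.

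In FEN-HFD against HFD at 7 days, 0 of 103 listed genes were called by edgeR, with 5 higher and 5 lower at an unadjusted p under 0.05, 1 and 2 by DESeq2 and 0 and 0 by limma-voom, against 0.0988% of all genes called higher and 0% lower by edgeR, 0.464% and 0.258% by DESeq2, and 0.175% and 0.0456% by limma-voom. The list medians lay between -0.19 and 0.03. The interaction called 2 of 105 lower and 0 higher by edgeR, and 6 lower and 0 higher both by DESeq2 and by limma-voom. Of all genes, 0.00747% were called higher and 0.0224% lower by edgeR, 0.366% and 0.493% by DESeq2, and 0.284% and 0.388% by limma-voom. The 2 called by edgeR were Abcc3, at a difference of -1.32 on the log2 scale, and Nnt, at -0.67 (edgeR adjusted p = 0.0197 for both). The call of Abcc3 was lost in 6 and that of Nnt in 9 of 16 fits that left out 1 mouse, at adjusted p-values of up to 0.0841, and that of Nnt also when every gene with at least 1 count was tested (adjusted p = 0.0530). Over all genes, the fits without 1 mouse called 0 to 9 lower, against 3 with all mice. Abcc3 averaged 149 ± 27.3 CPM in FEN-HFD and 111 ± 6.16 CPM in HFD livers at 7 days, and Nnt averaged 53.2 ± 0.792 CPM in FEN-HFD and 57.2 ± 2.86 CPM in HFD livers.

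In HFD mice at 20 weeks against 7 days, 25 of 105 listed genes were higher and 3 lower by edgeR, against 39 and 4 by DESeq2 and 27 and 5 by limma-voom. Of all genes, 4.78% were called higher and 2.73% lower by edgeR, 8.03% and 5.27% by DESeq2, and 5.76% and 3.81% by limma-voom. Among the 27 detoxification genes 11 rose and 1 fell (median log2 0.80, beside -0.01 over all genes). Gstm2 averaged 73.0 ± 17.1 CPM at 20 weeks and 18.7 ± 4.21 CPM at 7 days, a log2 fold change of 1.96 (edgeR adjusted p = 0.0014). Abcc3 averaged 346 ± 67.6 CPM at 20 weeks and 111 ± 6.16 CPM at 7 days, a log2 fold change of 1.63 (edgeR adjusted p = 0.000529), and Aox1 rose by 1.27 (edgeR adjusted p = 0.00195). Gstp1, another glutathione S-transferase, was the one that fell, by 1.37 (edgeR adjusted p = 0.00418). Of the 8 genes of the NADPH list 6 rose (median log2 0.65), with Me1 at a log2 fold change of 2.24, Tkt at 1.01, Idh2 at 0.80 and Nnt at 0.51 (edgeR adjusted p = 0.00825, 0.00404, 0.00772 and 0.00487). In haem and iron handling 3 of 8 rose and 1 fell (median log2 0.22). Biliverdin reductase Blvrb, Ftl1 and the ferritin heavy chain Fth1 rose by 0.79, 0.72 and 0.62, and the constitutive haem oxygenase Hmox2 fell by 0.40.

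The remaining lists held fewer calls between durations on HFD. Nfe2l1, a relative of NRF2, averaged 159 ± 9.92 CPM at 20 weeks and 106 ± 7.59 CPM at 7 days, a log2 fold change of 0.57 (edgeR adjusted p = 0.00566), and was the only one of 14 partners and regulators called by edgeR (median log2 0.05), where DESeq2 called 2 higher and limma-voom 1 higher and 1 lower. Gpx4, which reduces lipid peroxides, rose by 1.01 and was the only one of 14 glutathione genes called by edgeR (adjusted p = 0.0100, median log2 0.17), where DESeq2 called 3 higher and limma-voom 1 higher. In the thioredoxin list of 16 (median log2 0.07), Txnip, an inhibitor of thioredoxin, and Msra, a methionine sulfoxide reductase, rose by 0.82 and 0.50, and Prdx4, the peroxiredoxin of the endoplasmic reticulum, fell by 0.51. Cdkn1a, the p53 target p21, was the only one of 11 stress genes called by edgeR, at a log2 fold change of 1.79 (adjusted p = 0.0491, median log2 0.31), where limma-voom called 1 higher and DESeq2 called 3 higher and 1 lower. The call of Cdkn1a was lost when every gene with at least 1 count was tested (adjusted p = 0.0548). None of the 7 superoxide and metal defence genes was called by edgeR (median log2 0.07), with 1 higher and 1 lower at an unadjusted p under 0.05, 1 higher by DESeq2 and 1 lower by limma-voom. Some of these calls were lost when 1 mouse was left out, in 6 of 8 fits for Cdkn1a, 5 for Msra, 4 for Fth1, 3 for Hmox2 and 1 each for Prdx4 (without 20-week mouse 25, adjusted p = 0.0522) and Txnip (without 7-day mouse 142, adjusted p = 0.0566). The other 12 genes named here for this comparison kept an adjusted p under 0.05 in each such fit.

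In FEN-HFD mice at 20 weeks against 7 days, 3 of 103 listed genes were called, all higher, against 10 higher and 2 lower by DESeq2 and 13 higher and 5 lower by limma-voom. Of all genes, 0.849% were called higher and 0.332% lower by edgeR, 1.98% and 1.14% by DESeq2, and 3.90% and 2.99% by limma-voom. Ugdh, which makes UDP-glucuronate for conjugation, averaged 141 ± 18.3 CPM at 20 weeks and 81.6 ± 12.3 CPM at 7 days, a log2 fold change of 0.78 (edgeR adjusted p = 0.0194). Pgd, of the pentose phosphate pathway, rose by 0.56 (edgeR adjusted p = 0.0241) and Cdkn1a by 2.21 (edgeR adjusted p = 0.0194). Each call was lost in 4 to 6 of 8 fits that left out 1 mouse, all 3 without FEN-HFD mouse 22 at 20 weeks and without FEN-HFD mice 65 and 66 at 7 days, with highest adjusted p-values from 0.0653 to 0.0975. Over all genes, the fits without mouse 22, 65 or 66 called 51 to 75 higher and 18 to 29 lower, against 110 and 43 with all mice. With all 16 libraries in 1 fit, the calls of Pgd and Ugdh were lost as well (adjusted p = 0.213 and 0.0902). That fit called 102 of 13387 genes higher and 29 lower.

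For the 3 members with the smallest p in a pairwise comparison, the genes with the most similar profile were sought over the 16 libraries, by the root mean square difference of centred log2 CPM among 9469 genes that averaged 5 CPM or more. For Nqo1 these were Ugdh, Slc16a7 and 9130409I23Rik, at differences of 0.184, 0.220 and 0.235 on the log2 scale, beside an SD of Nqo1 itself of 0.697. Ugdh is also a member of the detoxification list. For Gclc they were Stk38l, Large and Rhod, at 0.181, 0.191 and 0.191, beside an SD of 0.470. For Osgin1 no gene was as close, with Slco2a1, Mapre2 and Mov10 at 0.348, 0.367 and 0.369, beside an SD of 0.590. Ugdh averaged 141 CPM in FEN-HFD and 226 CPM in HFD livers at 20 weeks, and 81.6 CPM in FEN-HFD and 88.0 CPM in HFD livers at 7 days. The libraries behind each likeness are the same 16, and it is a description only.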

How the data were processed

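Liver RNA-seq counts of 16 mice were analysed. The authors deposited whole-number read counts for each gene symbol, without normalisation. The submitters' processing notes name STAR 2.0, DESeq2 1.6 and mm10. The labels name a stranded total RNA kit with ribosomal RNA depletion and the study's methods another TruSeq kit, and the counting program, gene annotation and strand setting are not given in the sources used here.

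The main test was run with edgeR 4.0.16 under R 4.3.3 (filterByExpr, TMM, glmQLFit with robust=TRUE, glmQLFTest). Each pairwise fit held only the 2 groups compared, and the interaction all 16 libraries. Adjustment (Benjamini-Hochberg) ran over every gene tested, and the threshold was 0.05. Alternatives were DESeq2 1.42.0, limma-voom with sample quality weights (limma 3.58.1), RLE factors, every gene with at least 1 count, all 16 libraries in 1 fit, removal of Rn45s and Lars2, and each mouse left out in turn. The edgeR, DESeq2 and limma-voom tests were also run on simulated counts, for FEN-HFD against HFD at each duration. All libraries of a comparison were drawn from a shared mean profile. The simulation thus did not copy the make-up of the mouse 29 library and cannot show how that library bears on the tests. Depth ran from 19218230 to 32546829 counts per library. Nothing in the labels states more than that the 4 mice of a group are separate animals.

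The members and the lists were chosen with earlier results of these data known. All 10 members are named in every comparison. From each list up to 4 called genes with the smallest p are named, and for 3 members the 3 genes most like them. Mt1 and Mt2 were named outside this rule. Positions and exon lengths were taken from GENCODE M21 (GRCm38), and promoters from RefSeq.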

Additional observations from a re-analysis of the deposited data

Results flagged for a closer look

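In a group of 4 mice, a value stood out when its gap to the nearest other value, as a share of the range of the group, exceeded Dixon's critical value for 4 values. This was applied to each of the 10 genes in each of the 4 groups, 40 tests in all, and chance alone gives about 1 in 20 groups. The level of Hmox1 in FEN-HFD mouse 29 at 20 weeks, 59.1 CPM, lay far above the 25.0 to 28.3 CPM of the other 3 mice. In the same mouse Slc7a11 reached 1.66 CPM, from 16 counts, against 0 to 0.225 CPM in the other 3. Slc7a11 in HFD mouse 143 at 7 days reached 0.573 CPM, from 18 counts, against 0.0627 to 0.0967 CPM in the other 3. The summed level of Kupffer cell markers was the highest of its group in both mice, 1309 CPM in mouse 29 and 1226 CPM in mouse 143. In mouse 29 all the other marker lists also had their highest sum of the group. Lymphocyte markers, for example, had 5.30 CPM, against 0.705 to 1.09 CPM in the other mice. Rn45s took 53.1% of the counts of that library. The part of any of these in the flagged values was not tested.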

How the results depend on the processing

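In FEN-HFD against HFD at 20 weeks, 1 member was called; DESeq2 called 4, limma-voom 3, the fit of all 16 libraries 2, and fits without 1 mouse 0 to 3. In HFD at 20 weeks against 7 days, 2 were called; DESeq2, limma-voom and the fit of all 16 libraries called 4, the test of every gene with at least 1 count 1, and fits without 1 mouse 1 to 2. In FEN-HFD at 20 weeks against 7 days, 0 were called; DESeq2 called 1, limma-voom 3, and fits without 1 mouse 0 to 1. At 7 days and in the interaction, 0 were called under each alternative run. RLE factors and the removal of Rn45s and Lars2 moved none of these counts. The tests also differed over all genes: at 20 weeks edgeR called 242 genes, DESeq2 424 higher and 587 lower, and limma-voom 484 higher and 644 lower. The fit of all 16 libraries called 254 higher and 407 lower there, and fits without 1 mouse 16 to 203 higher and 20 to 221 lower. The cause of the differences between tests was not tested.

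The sign of a member's log2 fold change turned only where it was not called. Under limma-voom, in FEN-HFD at 20 weeks against 7 days, Keap1 had -0.000191, Gclm 0.066 and Osgin1 -0.10, and in the interaction Keap1 had -0.074 and Slc7a11 -1.88. In fits without 1 mouse, Nfe2l2 ran from -0.025 to 0.14 at 20 weeks, -0.28 to 0.068 at 7 days and -0.014 to 0.35 in the interaction; Nqo1 -0.0062 to 0.25 at 7 days; in FEN-HFD between durations Keap1 -0.0043 to 0.12, Gclm -0.073 to 0.053 and Osgin1 -0.25 to 0.22; in HFD between durations Keap1 -0.031 to 0.071 and Hmox1 -0.062 to 0.23; and in the interaction Keap1 -0.034 to 0.086, Txnrd1 -0.16 to 0.0095 and Slc7a11 -1.21 to 1.60. Among 1162 values of genes under the alternatives, 1010 kept direction and side of the threshold, 100 lost it, 21 passed it and 31 turned sign. Of 616 counts of called genes in the lists, 120 moved, either by over 1.5 times or to or from 0. At 20 weeks, FEN-HFD against HFD, the count ran from 1 to 3 for the NADPH list and from 0 to 1 for haem and iron genes without 1 mouse, and from 2 to 4 and 1 to 3 under the other alternatives.

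No paired analysis was possible because the groups share no mouse number. With 4 mice per group, many calls rested on single mice, and Slc7a11 was too low to compare. Reads of Gclm, Keap1 and the Gst genes are uncertain because of overlapping genes or paralogues. Only transcripts were measured, and NRF2 protein, its location and its binding were not.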
